A study of Mus musculus with 4 samples.

Results

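The 8 Smad genes (Smad1, Smad2, Smad3, Smad4, Smad5, Smad6, Smad7 and Smad9) and the corepressor genes Ski and Skil were followed here in mouse cardiac fibroblasts. These 10 members were taken by symbol from 33641 gene symbols. The cells were primary fibroblasts isolated from hearts of wild-type C57BL/6J mice at 12 weeks of age. They were given vehicle (2 libraries) or TGFbeta at 10 ng/ml (2 libraries), and both groups took up the crosslinkable uridine analogue 4-thiouridine 20 and 4 h before irradiation at 368 nm. The study's design text speaks of RNA eluted from the RNA-binding protein HuR after photoactivatable crosslinking, whereas the labels speak of total RNA. Values below are therefore levels in these libraries, and binding cannot be told apart from abundance. The labels do not say how long TGFbeta was present, or whether replicates came from separate animals or cultures, so p-values measure only the spread between these samples.

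Smads carry the signal of TGF-beta family receptors into the nucleus. Smad2 and Smad3 are phosphorylated by receptors for TGF-beta and activin, and Smad1, Smad5 and Smad9 by receptors for bone morphogenetic proteins (BMPs). Either set pairs with Smad4 to bind DNA. Smad6 and Smad7 are inhibitory Smads that block receptors or compete with the receptor-activated Smads, Smad6 mainly in BMP signalling. Ski and Skil (also called SnoN) bind Smad complexes on DNA and recruit repressors. In many cells Smad7 and Skil are induced by TGF-beta as feedback, and Smad6 by BMP. In cardiac fibroblasts Smad3 is known as a mediator of matrix gene induction.

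Promoter windows from RefSeq (GRCm38.p6) were searched for 6 of the 10 members: Smad1, Smad3, Smad5, Smad6, Smad9 and Ski. The promoters of Smad2, Smad4, Smad7 and Skil were not examined here, so nothing is said of their motifs. The 250 bases before the annotated start are printed for Smad6, Smad3 and Smad9, the 3 members with the lowest log2 change between TGFbeta and vehicle. Capitals mark GGCGCC, a GC-rich motif of BMP-responsive elements; CAGAC, the core of the Smad3 and Smad4 binding element, and its palindrome GTCTAGAC were searched as well, on both strands. None of these motifs contains another.
Smad6 promoter, chr9:64022060-64022309, minus strand: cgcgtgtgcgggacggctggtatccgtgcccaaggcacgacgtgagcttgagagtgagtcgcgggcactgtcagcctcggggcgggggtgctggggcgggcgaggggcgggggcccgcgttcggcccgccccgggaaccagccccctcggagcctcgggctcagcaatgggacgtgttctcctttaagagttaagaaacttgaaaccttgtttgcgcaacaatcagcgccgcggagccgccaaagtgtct
Smad3 promoter, chr9:63757995-63758244, minus strand: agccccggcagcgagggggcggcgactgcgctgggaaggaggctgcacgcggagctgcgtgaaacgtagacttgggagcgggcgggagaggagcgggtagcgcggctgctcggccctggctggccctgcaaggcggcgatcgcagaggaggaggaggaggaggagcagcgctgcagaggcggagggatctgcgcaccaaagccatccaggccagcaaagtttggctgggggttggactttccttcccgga
Smad9 promoter, chr3:54755332-54755581, plus strand: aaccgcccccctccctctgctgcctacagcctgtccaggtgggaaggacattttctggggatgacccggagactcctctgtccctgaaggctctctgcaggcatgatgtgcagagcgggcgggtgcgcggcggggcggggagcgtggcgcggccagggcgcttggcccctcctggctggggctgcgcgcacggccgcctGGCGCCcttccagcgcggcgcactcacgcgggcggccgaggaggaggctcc
The Smad6 and Smad3 windows held no match, and the Smad9 window held a single GGCGCC that begins 51 bases before the start. Over all 32536 distinct windows of this length, 42.2% held CAGAC, 0.169% held GTCTAGAC and 9.65% held GGCGCC. Among the other member windows, GGCGCC was found for Ski at 220 bases before the start and in 1 of 3 windows of Smad5 at 19, and CAGAC in another Smad5 window at 21. A match is a string of letters and not a measured binding site.

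HuR, the protein named in the design text, binds U-rich and AU-rich stretches, mostly in 3′ untranslated regions. In GENCODE M21 transcripts the pentamer ATTTA was counted in the 3′ untranslated region of each member. Skil had 14 copies in 3964 bases, Smad2 17 in 6233, Ski 10 in 3266, Smad9 8 in 3756 and Smad5 6 in 4899. Smad3 had 4 in 3495 bases, Smad7 4 in 1570, Smad4 2 in 1249, Smad6 2 in 448 and Smad1 0 in 1254. For each gene the transcript with the longest coding sequence was used. Over the 12657 tested protein-coding genes with such a region of at least 100 bases, the median count was 1 and the median length 1037 bases. Per length the members had a median of 2.34 copies per kb against 1.32 over those genes. The longer AU-rich nonamer TTATTTATT was in 1 member, Smad5, and in 7.70% of the 12657 genes. It is shown here in capitals with its flanks because it is the only such site among the members.
Smad5 3′ site: ctgtgccaTTATTTATTgcctttca
The site lay 1617 bases into the region. No crosslink positions were analysed here, so these letters say nothing about where HuR was bound.

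With TGFbeta, 2 of the 10 members passed the test and both were lower: Smad6, an inhibitory Smad, and Smad3, a carrier of the TGF-beta signal. Skil was the one member that lay higher in both TGFbeta libraries, without passing, and Smad9 lay lower in both, also without passing. Ski, the paralogue of Skil, and Smad2, Smad4, Smad1, Smad5 and Smad7, had log2 changes between -0.40 and 0.11. The test was limma on log2(TPM + 1), with Benjamini-Hochberg adjustment over the 15815 genes whose TPM averaged 1 or more, and a gene passed with an adjusted p under 0.05. TPM is a level per transcript length scaled to a fixed total in each library. All 10 members were among the tested genes. Of all tested genes 5.92% passed, 4.38% lower and 1.54% higher. The vehicle and TGFbeta libraries did not overlap for 7 of the 10 members (6 lower, 1 higher), against 55.3% of all tested genes (39.8% lower, 15.5% higher). Before adjustment 5 of the 10 had a limma p under 0.05, against 24.5% of all tested genes. The median log2 change was -0.25 over the members and -0.13 over all tested genes. After median scaling these were -0.10 and 0.03, so the sign of the median of all genes depends on how libraries are scaled. With 1 library left out the median of the members ran from -0.40 (without TGFbeta 1) to -0.15 (without vehicle 1).

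**Figure D1:**
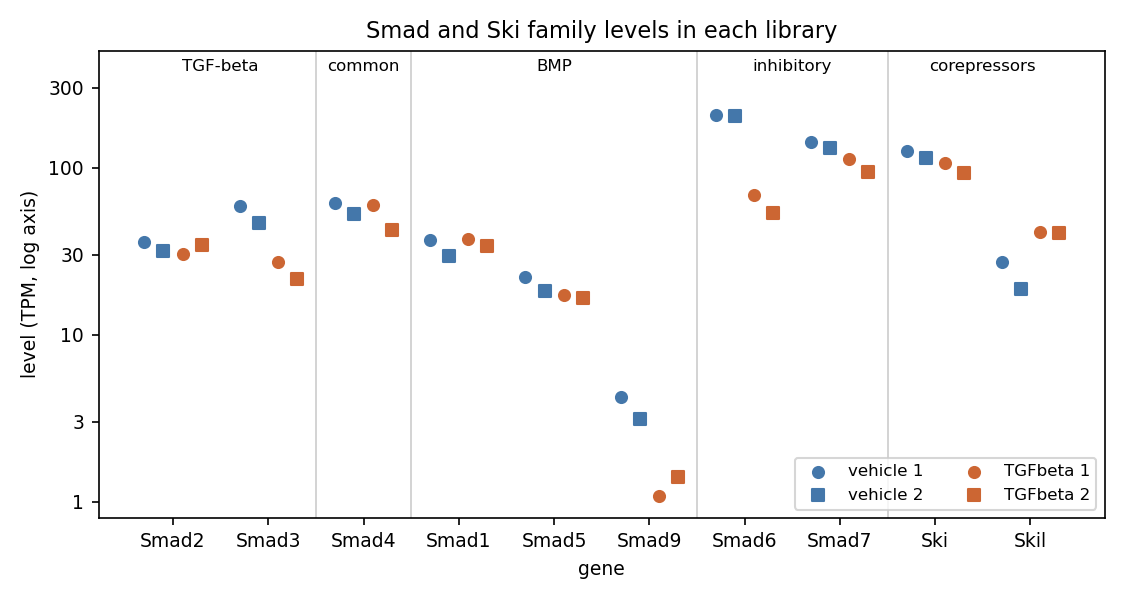
Level of each member in every library, in TPM on a log axis; circles are replicate 1 and squares replicate 2, blue for vehicle and orange for TGFbeta, with members grouped by role. Smad6 went from 207 and 205 TPM to 68.1 and 53.5 TPM, while Smad2, Smad4 and Smad1 overlap between the groups.

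Of the carriers of the TGF-beta signal, Smad3 fell and Smad2 did not pass. Smad3 (ENSMUSG00000032402.12, GRCm38 chromosome 9, 63646767 to 63757994, minus strand) was measured at 59.1 and 46.8 TPM under vehicle, and at 27.0 and 21.5 TPM under TGFbeta. Both TGFbeta values lay under both vehicle values. Its mean fell 2.18-fold, from 53.0 ± 8.70 to 24.3 ± 3.90 TPM (SD, n = 2 each), with a log2 change of -1.09 (SE 0.19, limma adjusted p = 0.0316). Smad2 had 35.8 and 31.8 TPM with vehicle and 30.3 and 34.6 TPM with TGFbeta, so the groups overlapped. Its log2 change was -0.06 (SE 0.15, limma adjusted p = 0.857). In vehicle, Smad3 was above Smad2 in both libraries, and with TGFbeta it was below Smad2 in both. Smad3 made up 62.3% and 59.6% of the summed Smad2 and Smad3 level with vehicle, and 47.1% and 38.4% with TGFbeta. Such a share is taken within a library and does not depend on how libraries are scaled. The sum itself went from 95.0 and 78.6 TPM to 57.4 and 56.1 TPM. The Smad3 call was lost whichever of the 4 libraries was left out: the limma adjusted p was 0.166 and 0.161 when vehicle 1 or vehicle 2 was dropped, and 0.0757 and 0.111 when TGFbeta 1 or TGFbeta 2 was. It was also lost without an intensity trend in the variance (0.0537) and when every gene above 0 was tested (0.110), with log2 changes from -1.26 to -0.93 over all settings.

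Smad4, the partner shared by both branches, had 61.6 and 52.9 TPM with vehicle and 60.0 and 42.0 TPM with TGFbeta. The TGFbeta libraries lay on either side of vehicle 2 and differed from each other by more than the group means did. The difference, -0.18 on the log2 scale (SE 0.20), was not past the test (limma adjusted p = 0.636) and was 0.07 without TGFbeta 2, -0.07 without vehicle 1, -0.29 without vehicle 2, -0.43 without TGFbeta 1 and -0.03 after median scaling.

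The carriers of the BMP signal were low to moderate in level. Smad1 had 36.7 and 29.5 TPM with vehicle and 37.4 and 34.1 TPM with TGFbeta, which overlap. Its log2 change was 0.11 (SE 0.16, limma adjusted p = 0.719), -0.04 without vehicle 2, and 0.27 both without vehicle 1 and after median scaling. Smad5 had 22.0 and 18.3 TPM with vehicle and 17.4 and 16.4 TPM with TGFbeta. Both TGFbeta values lay under the vehicle values by a small margin, and the difference of -0.24 (log2, SE 0.16) was not past the test (limma adjusted p = 0.434). It was -0.11 without vehicle 1, -0.36 without vehicle 2, and -0.08 after median scaling. Smad9, which encodes the protein also called Smad8, was the least abundant member in every library. It had 4.25 and 3.11 TPM with vehicle and 1.09 and 1.40 TPM with TGFbeta, a ratio of vehicle to TGFbeta means of 2.96. The groups did not overlap, and the difference of -1.05 (log2, SE 0.23) was just outside the test (limma adjusted p = 0.0570). Smad9 passed in the robust fit (0.0388) and when protein-coding genes alone were tested (0.0147), a setting added after seeing the data. These were the only 2 of 13 alternatives in which it passed. With the replicate number as a block its limma adjusted p was 0.0888. The pseudocount set the size of the Smad9 change, which was -1.49 with 0.1 and -0.47 with 5 added to each TPM. Smad9 gave 6.75% and 6.11% of the summed Smad1, Smad5 and Smad9 level with vehicle and 1.95% and 2.69% with TGFbeta. The sum of the 3 overlapped between groups, with 63.0 and 50.9 TPM against 55.8 and 51.9 TPM.

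Smad6 and Smad7, the inhibitory Smads, were the 2 most abundant members with vehicle. Smad6 (ENSMUSG00000036867.7, GRCm38 chromosome 9, 63953076 to 64022059, minus strand) stood at 207 and 205 TPM under vehicle, and at 68.1 and 53.5 TPM under TGFbeta. The vehicle libraries nearly coincide, and both TGFbeta libraries lay far under them. The mean fell 3.39-fold, from 206 ± 1.51 to 60.8 ± 10.3 TPM (SD, n = 2 each), with a log2 change of -1.75 (SE 0.16, limma adjusted p = 0.00766). Smad7, on chromosome 18, had 141 and 131 TPM with vehicle and 112 and 94.0 TPM with TGFbeta. It was lower in both TGFbeta libraries, but the difference of -0.40 on the log2 scale (SE 0.15) was not past the test (limma adjusted p = 0.161; 0.0320 before adjustment). Smad7 passed under none of the 14 alternatives, whose log2 changes ran from -0.53 to -0.25. Smad6 kept its call in 11 of 14 alternatives. It lost it without vehicle 1 (limma adjusted p = 0.0953), without vehicle 2 (0.110) and when every gene above 0 was tested (0.0604). Its log2 change ran from -1.92 to -1.58.

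Within the inhibitory pair, Smad6 gave 59.4% and 61.0% of the summed level with vehicle and 37.8% and 36.3% with TGFbeta, so the order of the 2 genes turned over in both libraries. With 2 libraries a group an exact two-sided permutation test cannot go below p = 0.33, so this shift in share is given without a test. The summed level of Smad6 and Smad7 was 348 and 335 TPM with vehicle and 180 and 147 TPM with TGFbeta. Set against the 5 receptor-activated Smads together, inhibitory Smad RNA was 2.20 and 2.59 times as high with vehicle and 1.59 and 1.36 times with TGFbeta. All 10 members together summed to 721 and 650 TPM with vehicle and 501 and 431 TPM with TGFbeta, and Smad6 held most of that difference.

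**Figure D2:**
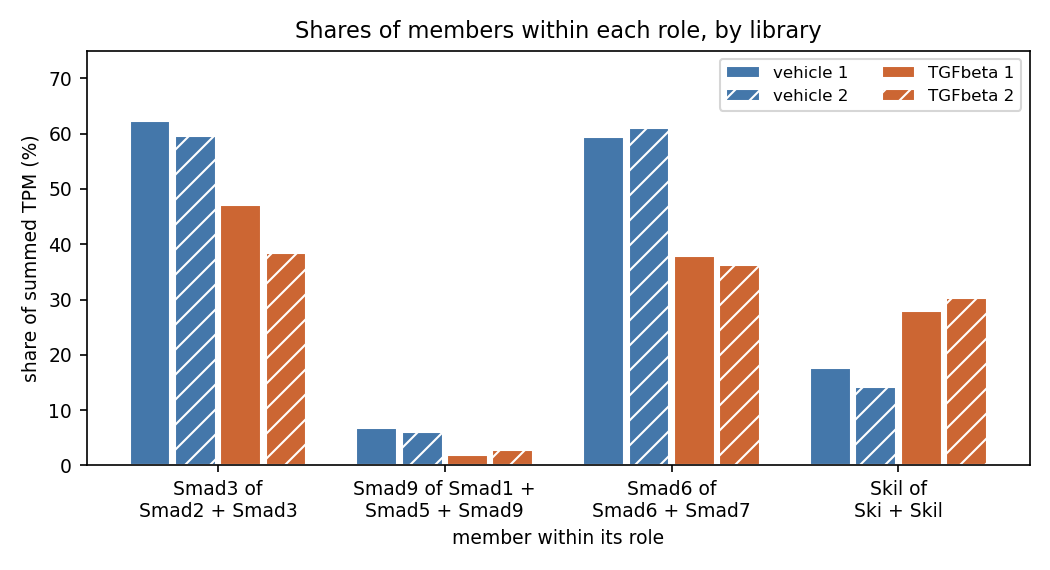
Share of 1 member in the summed TPM of its role, in percent, with a bar per library (blue vehicle, orange TGFbeta, hatched for replicate 2). The TGFbeta bars lie below both vehicle bars for Smad3, Smad9 and Smad6 and above both for Skil, which goes from 17.6% and 14.2% to 27.9% and 30.2%.

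The corepressor genes differed in direction. Skil (ENSMUSG00000027660.16, GRCm38 chromosome 3, 31095058 to 31122577, plus strand) had 27.1 and 18.8 TPM with vehicle and 41.3 and 40.3 TPM with TGFbeta. Both TGFbeta values lay above both vehicle values, and the vehicle libraries differed from each other more than the TGFbeta libraries did. The ratio of means was 1.78 and the log2 change 0.82 (SE 0.20), which did not pass (limma adjusted p = 0.0659). Skil passed after median scaling of the libraries (0.98, limma adjusted p = 0.0349) and after quantile normalization (0.96, 0.0413). It also passed with a floor of 5 on mean TPM (0.0295), in the robust fit (0.0470) and with protein-coding genes alone (0.0250). These were the only 5 of 14 alternatives in which Skil passed. It did not pass with the replicate number as a block (limma adjusted p = 0.0806) or without an intensity trend (0.0989). Nor did it when every gene above 0 was tested (0.155). Its log2 change was 0.57 without vehicle 2 and 1.07 without vehicle 1. Ski, the more abundant gene of the pair, had 126 and 114 TPM with vehicle and 107 and 93.0 TPM with TGFbeta. It was lower in both TGFbeta libraries, with a log2 change of -0.27 (SE 0.14, limma adjusted p = 0.314). That change was -0.17 without TGFbeta 2 and -0.11 after median scaling. Skil made up 17.6% and 14.2% of the summed Ski and Skil level with vehicle and 27.9% and 30.2% with TGFbeta. The sum overlapped between groups, with 153 and 133 TPM against 148 and 133 TPM. The other genes of the Ski family were at or near 0 in these libraries: Skor1 had at most 0.252 TPM and Skor2 was listed at 0 in every library.

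**Figure D3:**
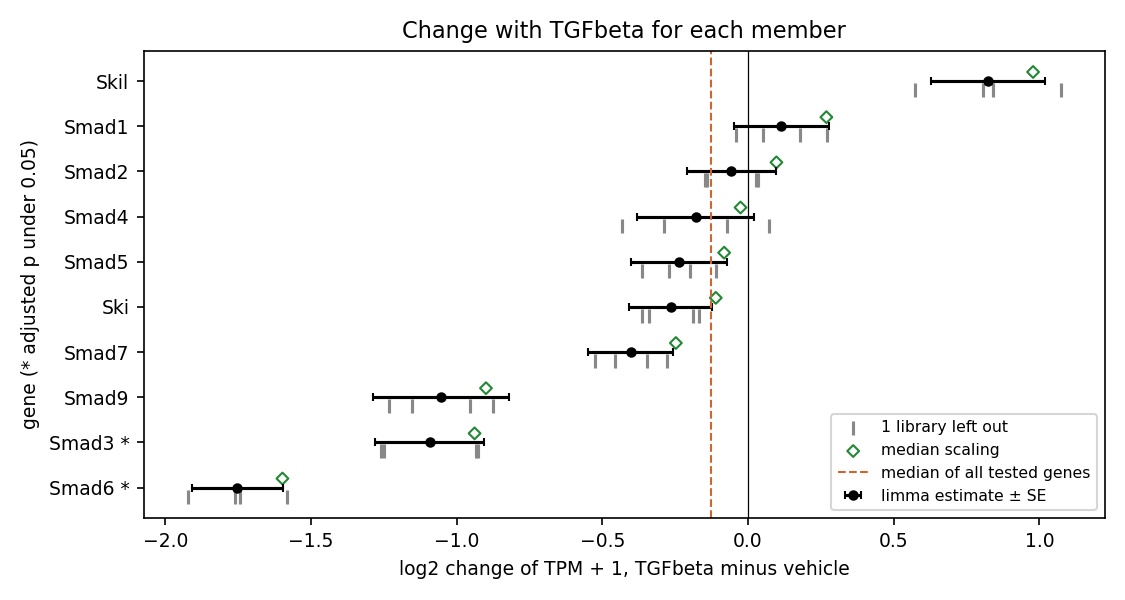
Log2 change of TPM + 1 (TGFbeta minus vehicle) for each member with its SE, grey ticks for fits with 1 library left out, green diamonds after median scaling and a dashed line at the median of all tested genes. Smad6 and Smad3 (asterisks, adjusted p under 0.05) lie at -1.75 and -1.09, and the ticks of Smad1, Smad2 and Smad4 fall on both sides of 0.

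TPM is per length, so levels in these libraries were compared between members. If the RNA was eluted from HuR, binding and abundance cannot be told apart in this order either. With vehicle their order ran Smad6, Smad7, Ski, Smad4, Smad3, then Smad2 and Smad1, then Skil, Smad5 and Smad9. The ranges of Smad4 and Smad3, of Smad2 and Smad1, and of Skil and Smad5 overlapped between the vehicle libraries. With TGFbeta it ran Smad7, Ski, Smad6, Smad4, Skil, then Smad1 and Smad2, then Smad3, Smad5 and Smad9. There the ranges of Smad7 and Ski, of Smad6 and Smad4, and of Smad1 and Smad2 overlapped. Against all tested genes, the mean level of Smad6 over the 4 libraries stood at percentile 92.0, Smad7 at 90.9 and Ski at 89.9. Smad4 stood at 78.6, Smad3 at 71.0 and Smad9 at 15.5. Within groups, all 10 members were higher in vehicle 1 than in vehicle 2, and 8 of 10 were higher in TGFbeta 1 than in TGFbeta 2. Their median difference was 0.24 between the vehicle libraries on the log2 scale, against 0.06 over all tested genes. Between the TGFbeta libraries it was 0.16, against -0.02. Because all tested genes had a median change of -0.13, member changes relative to that median were -1.63 for Smad6, -0.97 for Smad3, -0.93 for Smad9 and 0.95 for Skil. Relative to it Smad2 was at 0.07, Smad4 at -0.05 and Ski at -0.14.

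The 2 members that passed lie near each other on chromosome 9, 195 kb apart and on the same strand. GENCODE places 3 genes between them, which were not analysed here. The position was looked at after the values were seen. Of the other genes within 500 kb on either side, 12 were tested, and limma called 0 of them (3 at an unadjusted p under 0.05). Their log2 changes ran from -0.54 to 0.38. Aagab, the nearest tested gene beside Smad3, had 14.6 and 13.2 TPM with vehicle and 9.87 and 10.4 TPM with TGFbeta (log2 change -0.42, limma adjusted p = 0.183). Zwilch, a kinetochore gene on the far side of Smad6, had a log2 change of -0.19 without passing (limma adjusted p = 0.565), and Map2k1, which encodes the kinase MEK1, one of 0.38 (limma adjusted p = 0.167).

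Upstream of the Smads, 3 of 12 tested receptor genes fell, 0 rose and 9 did not pass, with a median log2 change of -0.02 beside -0.13 over all tested genes. The Acvr1b gene, for a type I activin receptor that activates Smad2 and Smad3, had 40.4 and 39.3 TPM with vehicle and 16.3 and 16.2 TPM with TGFbeta (log2 change -1.24, SE 0.14, limma adjusted p = 0.0116). Tgfbr3, for the coreceptor betaglycan, fell by 1.04 on the log2 scale (limma adjusted p = 0.0352; 0.0539 with the replicate number as a block). Acvrl1, for the receptor ALK1 that activates Smad1 and Smad5, went from 382 and 397 TPM to 248 and 207 TPM (log2 change -0.78, limma adjusted p = 0.0402). That call was lost after median scaling (0.0872), after quantile normalization (0.0536), without an intensity trend (0.0717) and with the replicate block (0.0673). With the block 1 of the 3 receptor calls was left. The ligand-binding pair for TGF-beta itself did not pass: Tgfbr1 had 24.6 and 20.4 TPM with vehicle and 24.0 and 20.5 TPM with TGFbeta (log2 change -0.02), and Tgfbr2 25.2 and 22.1 TPM against 31.4 and 26.8 TPM with TGFbeta (log2 change 0.29). The BMP receptor genes Bmpr1a and Bmpr2 had log2 changes of -0.02 and 0.32, neither of which passed. All 3 receptor calls were lost whichever library was left out.

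Among 21 genes for proteins that modify, degrade or hold Smads, 2 rose, 2 fell and 17 did not pass, with a median log2 change of -0.10. Pmepa1, for a membrane protein that sequesters Smad2 and Smad3, had 220.4 and 250.04 TPM with vehicle and 815 and 576 TPM with TGFbeta (log2 change 1.54, SE 0.20, limma adjusted p = 0.0166). Ldlrad4, for a related protein, rose by 0.80 (limma adjusted p = 0.0380; 0.0662 with the replicate block). Nedd4l, for a ubiquitin ligase that targets activated Smad2 and Smad3, went from 13.7 and 13.6 TPM to 6.45 and 5.81 TPM (log2 change -1.04, limma adjusted p = 0.0276). Ctdspl, for a small phosphatase of the family that acts on the Smad linker, fell by 1.02 (limma adjusted p = 0.0221). The ligase genes Smurf1 and Smurf2, whose products work with the inhibitory Smads, had log2 changes of 0.25 and 0.09, and Rnf111, for the ligase Arkadia that degrades Ski, Skil and Smad7, one of 0.05; none of these passed. Of the 4 calls 1 was left without TGFbeta 1 and 1 without TGFbeta 2, and 0 without either vehicle library.

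Of 15 tested nuclear partners of Smads and Ski, limma called 0, with 3 at an unadjusted p under 0.05 and a median log2 change of -0.08. The list holds the coactivators Ep300 and Crebbp and the corepressors Ncor1, Sin3a and Tgif1. Tgif1 had the largest change of the list, with 37.8 and 37.7 TPM against 52.1 and 53.3 TPM (log2 change 0.47, limma adjusted p = 0.0913). It passed under none of the 14 alternatives. After median scaling the medians of the receptor, regulator and partner lists were 0.14, 0.05 and 0.07, beside 0.03 over all tested genes, so none of the 3 kept its sign; the first 2 were also above 0 without vehicle 1 (0.07 and 0.03).

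**Figure D4:**
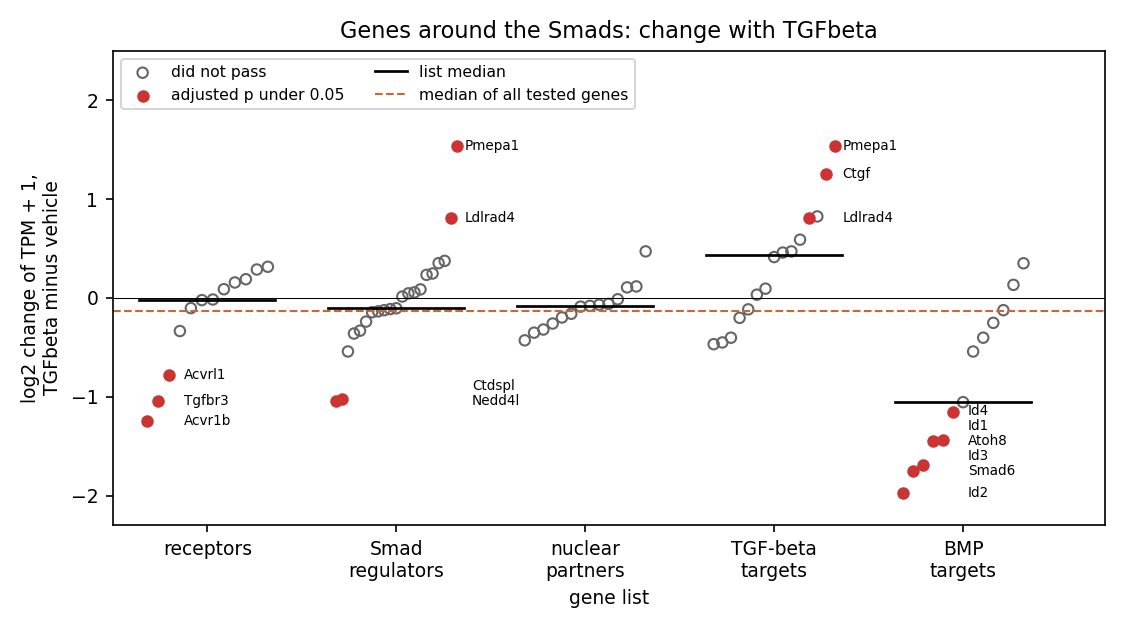
Log2 change of TPM + 1 (TGFbeta minus vehicle) for tested genes of 5 lists around the Smads (2 genes counted in the text are not drawn), each sorted from low to high; filled red points passed at an adjusted p under 0.05 and are named in their order, black bars are medians of the full lists and the dashed line is the median of all tested genes. The list medians are -0.02, -0.10, -0.08, 0.44 and -1.05 from left to right.

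Genes that the Smad branches are known to switch on had list medians on opposite sides of the median of all tested genes, which was not tested between lists. The lists were chosen with earlier results of these data known, and Smad7 is in both. The contrast therefore describes the chosen genes only. Of 16 tested target and feedback genes of TGF-beta, 4 rose, 0 fell and 12 did not pass, with a median log2 change of 0.44. Among these were Pmepa1, Ldlrad4 and Ctgf, which encodes connective tissue growth factor and rose by 1.25. Smad7 and Skil belong to this list too, and 4 of the 14 others rose. Of 13 tested BMP target genes 6 fell, 0 rose and 7 did not pass, with a median of -1.05, which is the value of Smad9. That median depended on the setting. It was -0.47 with a pseudocount of 5 and -0.54 when every gene above 0 was tested. With a pseudocount of 0.1 it was -1.26, and with a floor of 5 on mean TPM -1.44. Without the members Smad6, Smad7 and Smad9, 5 of 10 tested BMP targets fell, with a median of -0.85. Id3, for an inhibitor of DNA binding, had 836 and 699.8 TPM with vehicle and 245 and 227 TPM with TGFbeta. Atoh8, for a transcription factor, had 159 and 130 TPM against 55.1 and 49.4 TPM (log2 change -1.45, limma adjusted p = 0.0107). Id1, Id2 and Id4 had log2 changes of -1.44, -1.97 and -1.16, the last at the edge of the test (limma adjusted p = 0.0497; 0.0515 with the replicate block) and lost in 10 of 14 alternatives. Without vehicle 1 or without vehicle 2, 0 genes of either list were called. Without TGFbeta 1 or without TGFbeta 2, 5 BMP targets and 1 TGF-beta target were.

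Smad6, Acvrl1 and Atoh8 are also known as endothelial genes, so markers of other cell types were read in the same libraries. The fibroblast genes were high: the 8 markers, all tested, summed to 8296 and 6628 TPM with vehicle and 11034 and 8945 TPM with TGFbeta. Limma called 2 of the 8, both lower. Pdgfra, for a receptor of platelet-derived growth factor, had 169 and 139 TPM with vehicle and 55.5 and 57.8 TPM with TGFbeta (log2 change -1.42, limma adjusted p = 0.0106). Tcf21, for a transcription factor of the fibroblast lineage, had 600.4 and 564 TPM against 283 and 255 TPM (log2 change -1.11, limma adjusted p = 0.0148). Dcn and Ddr2 lay lower without overlap and did not pass (log2 changes -0.40 and -0.42). The collagen genes Col1a1 and Col1a2 lay higher without overlap and did not pass (0.91 and 0.48). Of 10 endothelial markers 9 were tested, and the sum of the 10 was 86.2 and 90.5 TPM with vehicle and 74.2 and 69.4 TPM with TGFbeta. Cdh5, for the endothelial cadherin, had 6.36 and 7.29 TPM against 4.17 and 4.45 TPM, and Pecam1 5.97 and 7.35 TPM against 5.93 and 6.07 TPM. Limma called 1 of the 9, Erg, which was higher with TGFbeta (log2 change 1.57). Egfl7, Esam and Cdh5 lay lower without overlap and did not pass (log2 changes -0.78, -0.73 and -0.56). Their limma p before adjustment was 0.0044, 0.011 and 0.024. Tie1 and Vwf also lay lower without overlap (-0.28 and -0.23), while Pecam1, Tek, Emcn and Kdr overlapped. Egfl7, the most abundant of the 10, had 34.0 and 34.3 TPM against 22.5 and 17.0 TPM. The 10 together lay below Smad6 alone in both vehicle libraries and above it in both TGFbeta libraries. Markers of pericytes and smooth muscle summed to 94.1 and 102 TPM with vehicle and 51.0 and 53.3 TPM with TGFbeta. Of these 6 markers 4 were tested, and limma called 1, Notch3, which was lower with TGFbeta. Without Notch3 the other 5 summed to 20.1 and 18.1 TPM with vehicle and 29.9 and 35.9 TPM with TGFbeta, the opposite direction. That rise lay mostly in Cspg4, with 12.4 and 10.7 TPM against 22.5 and 16.7 TPM, and in Rgs5. Rgs5 had 2.26 and 2.47 TPM with vehicle, 1.95 TPM in TGFbeta 1 and 13.5 TPM in TGFbeta 2. Myh11 was slightly higher, and Kcnj8 and Abcc9, which were not tested, were lower. Of 7 macrophage markers, all tested, limma called 0, with 1 at an unadjusted p under 0.05 and sums of 75.4 and 93.7 TPM against 62.8 and 67.4 TPM. Of 6 cardiomyocyte markers 3 were tested and limma called 0 of them, with 2 at an unadjusted p under 0.05. These were Tnnt2, with 47.0 and 81.4 TPM against 35.2 and 34.6 TPM, and Tnni3, with 14.8 and 17.6 TPM against 7.62 and 10.8 TPM. Myh6 and Actc1 were at or near 0 in all libraries. The part of any of these in the Smad values was not tested, and in bulk libraries fewer cells of a type and less RNA per cell cannot be told apart.

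The genes most like the called members were found by the distance between centred log2(TPM + 1) profiles over the 4 libraries, among 10540 genes whose TPM averaged 5 or more. For Smad3 they were Igsf10 (distance 0.02), Pygl (0.07) and Fscn1 (0.09). Pygl had 20.8 and 16.6 TPM with vehicle and 9.19 and 7.68 TPM with TGFbeta. For Smad6 they were Uba7 (0.11), Psmb8 (0.11) and Tbkbp1 (0.12). Uba7 had 85.2 and 90.1 TPM with vehicle and 30.9 and 22.6 TPM with TGFbeta. With 4 points a profile, many genes can come this close.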

How the data were processed

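RNA levels were analysed for 4 libraries, 2 per treatment. The deposited values are TPM per gene symbol, per the file headers, with a total of 1000000 in each library; the aligner, the quantifier and the build were not named in the sources read here. TPM carries no read numbers, so depth is unknown. The limma test (3.58.1, R 4.3.3; two-sided, with eBayes trended by intensity and no term but treatment) ran on log2(TPM + 1) of genes averaging at least 1 TPM. Log2 changes are TGFbeta minus vehicle on that scale, which understates changes of low genes, and folds are ratios of mean TPM. The procedure was tested on simulated data with independent normal noise, so that test does not bear on how calls depend on single libraries. Gene positions and transcripts are from GENCODE M21 (GRCm38), matched by symbol, and promoters from RefSeq.

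The members and the gene lists were chosen with earlier results of these data known. The text names all members, the called genes of each list, the gene of each list with the largest change and the 3 genes most like each called member; 2 list genes are counted but not reported here; other genes were named after their values were seen, as was the count of AU-rich motifs. Results were recomputed with pseudocounts of 0.1 and 5, with all genes above 0, with a floor of 5 on mean TPM, and with median scaling, quantile normalization, no trend, a robust fit, a replicate block and each library left out, where the lone library is assumed to vary like the other group. Testing protein-coding genes alone was added after seeing the data.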

Additional observations from a re-analysis of the deposited data

How the results depend on the processing

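The count of 2 members called became 0 when every gene above 0 was tested (limma; 5 at an unadjusted p under 0.05), 1 without an intensity trend, 4 in the robust fit and 4 with protein-coding genes alone. Testing every gene above 0 also left 0 of all genes (limma; 4348 at an unadjusted p under 0.05), 0 receptors (4), 0 Smad regulators (7), 0 TGF-beta targets (9) and 0 BMP targets (9). Over all tested genes 936 were called, 602 without a trend and 1737 with protein-coding genes alone; 421 higher and 401 lower after median scaling, against 244 and 692. With 1 library left out, limma called 0 to 203 of all genes, 0 to 1 members, 0 receptors (3 to 4 at an unadjusted p under 0.05), 0 to 1 Smad regulators, 0 to 1 TGF-beta targets and 0 to 5 BMP targets; both losses of every call came without a vehicle library (3033 and 2407 genes at an unadjusted p under 0.05).

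Smad2 turned from -0.06 to 0.0975 under median scaling and to 0.0822 under quantile normalization, and ran from -0.148 to 0.0343 with 1 library left out. Smad1 ran from -0.0402 to 0.269 and Smad4 from -0.432 to 0.0718 in the same fits. The other 7 members kept their direction in every alternative run. Vehicle and TGFbeta libraries of the same number did not deviate together (r = -0.05 across 15815 genes). This value cannot tell whether libraries of the same number shared animals or cultures, which the labels do not say. With the replicate block 631 genes, 2 members and 1 receptor were called. TPM without read counts limits what can be said of Smad9, the lowest member.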
